A study of Mus musculus with 2 samples.

Results

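The genes described are 5 whose proteins are studied in neurodegenerative disease: the ubiquitin hydrolase gene Uchl1, the DJ-1 gene Park7, the prion protein gene Prnp, and the synuclein genes Sncb and Sncg. They were chosen by name from the 55536 annotated genes of the M21 release and found by their symbols in that annotation. The RNA came from forebrains of newborn B6NCrl mice, was primed with oligo-dT and was fragmented by tagmentation. The 2 libraries form 1 group with no treatment, and each was made from 10 ng of RNA of a single forebrain, pup 3 (replicate 2) or pup 1 (replicate 1). The pups have no recorded sex and carry one donor identifier between them.

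Synucleins are small proteins of presynaptic terminals that bind vesicle membranes through a repeated sequence element near their start. Beta-synuclein is a protein of brain synapses, and gamma-synuclein is best known from sensory and motor neurons and retinal ganglion cells. The prion protein is a copper-binding glycoprotein anchored to the outer face of the neuronal membrane, and its misfolded form transmits prion disease. UCHL1 releases ubiquitin from small adducts and is among the most abundant proteins of neurons, and DJ-1 protects cells against oxidative stress and is lost in a recessive form of parkinsonism.

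The libraries held 41230878 expected counts in pup 3 and 40964891 in pup 1. With 1 group of 2 pups no test between groups exists, so values are given per pup and differences by size alone. Levels are in TPM, a relative abundance corrected for transcript length and library size, and each ± is an SD over the 2 pups. Detection meant a level of at least 1 TPM in each pup. Markers of neurons were detected in 6 of 6 genes, against 59.5% of all protein-coding genes. Their median was 191 TPM, against 17.1 TPM over the protein-coding genes detected in both pups. Their summed level was 3184 TPM in pup 3, against 3707 TPM in pup 1. Markers of radial glia were detected in 5 of 5 genes, of astrocytes in 4 of 4, of endothelium in 4 of 4 and of microglia in 4 of 4. Those of oligodendrocytes and of red blood cells were each detected in 3 of 4. Lists this short are not set apart from the 59.5% by their counts alone. The libraries are of bulk tissue, so the values below are sums over the cell types present.

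All 5 genes were detected in both pups, as were 26.6% of all annotated genes and 59.5% of protein-coding genes. Their levels lay far apart, with 99.6% of detected genes below the highest and 12.9% below the lowest. Uchl1 was the highest at 1415 ± 112 TPM, followed by Park7 at 373 ± 14.0 TPM, Prnp at 315 ± 48.5 TPM, Sncb at 105 ± 11.8 TPM and Sncg at 2.63 ± 0.898 TPM (SD, n = 2). The median over the 13113 detected protein-coding genes was 17.1 TPM, so 4 of the genes stood above it and Sncg below it. The order was the same in both pups. Log2 ratios of neighbouring genes within a library exceeded their own spread for Uchl1 over Park7 (1.92 ± 0.17), Prnp over Sncb (1.58 ± 0.06) and Sncb over Sncg (5.31 ± 0.32), but not for Park7 over Prnp (0.25 ± 0.28).

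**Figure D1:**
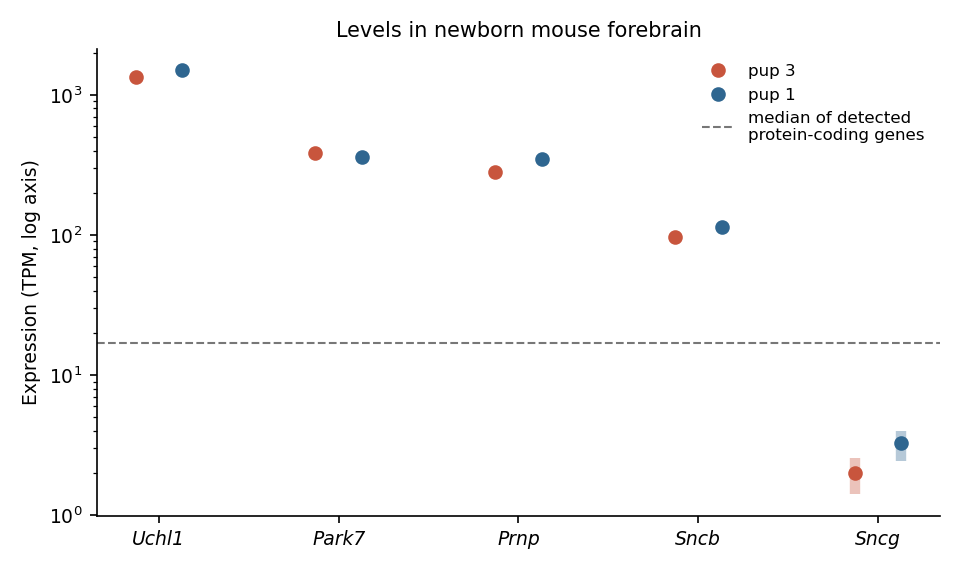
Expression in TPM on a log axis for each gene in pup 3 (red) and pup 1 (blue). Pale bars are the authors' deposited bounds on TPM, widest for Sncg at this scale, and the dashed line is the median of detected protein-coding genes at 17.1 TPM. The bars are not centred on the points, which lie above their bar for 1 gene in pup 3 and 3 genes in pup 1. Uchl1 lies above the other 4 genes and Sncg below the line in both pups.

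Uchl1 (ENSMUSG00000029223, mm10 chromosome 5, 66676091 to 66687234, plus strand) stood at 1336 TPM in pup 3, against 1494 TPM in pup 1, from 33403 and 32934 expected counts. It held rank 54 among 22028 protein-coding genes in pup 3 and rank 46 in pup 1.

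Most of the Uchl1 signal was assigned to a transcript that the annotation does not mark as coding. Uchl1-202, of type retained intron and 980 bases long, stood at 827 TPM in pup 3, against 899 TPM in pup 1, which is 61.0% ± 1.24 of the gene's TPM. The only protein-coding transcript, Uchl1-201 with 1177 bases and 9 exons, stood at 355 TPM in pup 3, against 409 TPM in pup 1, or 27.0% ± 0.537. The short entry Uchl1-204 of 228 bases took 10.8% ± 0.537 of the TPM, although it held only 531 of the gene's 33403 counts in pup 3 and 565 of 32934 in pup 1. The remaining entry, Uchl1-203, took 1.06% in pup 3 and 1.30% in pup 1. Among 9094 protein-coding genes with several transcripts and at least 5 TPM in each pup, the leading transcript was of type retained intron in 279, or 3.07%. The median share of TPM in protein-coding transcripts of these genes was 93.3%, and 3.64% of them had a lower share than Uchl1. Over protein-coding transcripts alone, a choice made after seeing the data, Uchl1 stood at 355 TPM and Park7 at 382 TPM in pup 3, and at 409 TPM and 361 TPM in pup 1, so their order was turned in pup 3. That choice leaves out the 21440 counts in pup 3 and 20666 in pup 1 assigned to Uchl1-202, most of whose bases Uchl1-201 shares. It therefore rests on how the authors' estimate divided shared reads. In expected counts of the whole genes, uncorrected for length, the log2 ratio of Uchl1 to Park7 was 2.00.

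Uchl1-201 and Uchl1-202 differ mainly in what stands before exon 3, and their sequences are shown at that point, where they part. Uchl1-201 reaches exon 3 by splicing from exons 1 and 2, which hold the start codon, while Uchl1-202 begins inside intron 2 and runs straight into exon 3. Capitals mark the 45 coding bases of exons 1 and 2 in the first sequence and the 52 intronic bases in the second, followed in lower case by the first 30 bases of exon 3, which both share. Both are taken from the transcript sequences of the M21 release, plus strand.
Uchl1-201, spliced, within chr5:66676290-66676973: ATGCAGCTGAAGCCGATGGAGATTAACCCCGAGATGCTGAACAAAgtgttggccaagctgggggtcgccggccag
Uchl1-202, chr5:66676892-66676973: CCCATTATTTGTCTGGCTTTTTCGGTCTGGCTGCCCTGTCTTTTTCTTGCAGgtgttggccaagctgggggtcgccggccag
The 52 capital bases of Uchl1-202 are all that it has and no other listed transcript has, and it has no splice junction of its own. They end in a run rich in T and C and the letters AG, the usual end of an intron. Uchl1-201 has 156 bases and 1 junction of its own, the one from exon 2 to exon 3. None of the 156 bases is printed, as the 45 capital bases also lie in exons of the noncoding Uchl1-203. From exon 3 to the stop codon both hold every coding base, so reads from there were divided between them by the authors' estimate. Which of these RNAs the forebrain holds was not tested here.

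**Figure D2:**
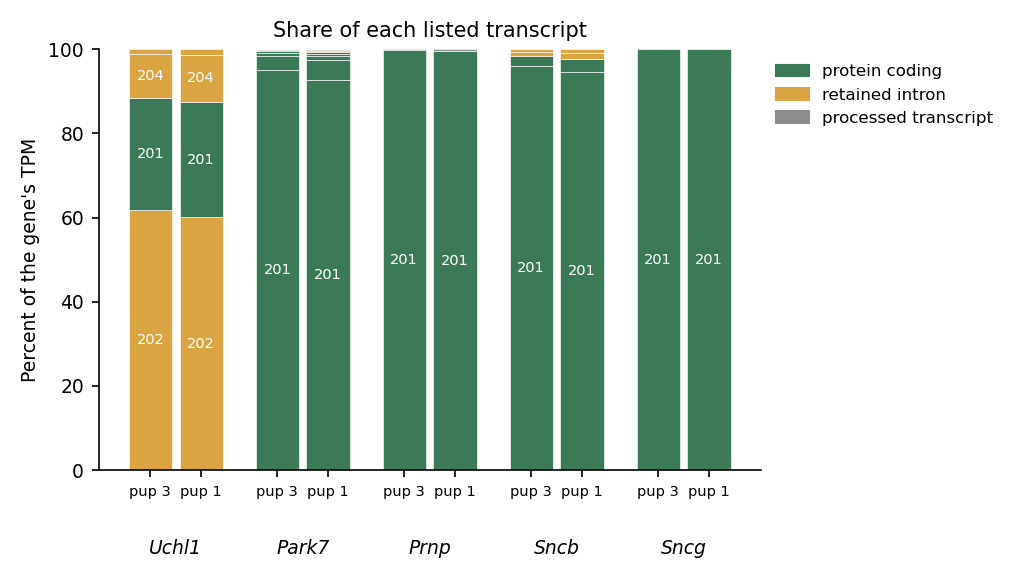
Share of each gene's TPM, in percent, taken by each listed transcript in pup 3 and pup 1, coloured by annotated type, with the transcript's number inside shares of 5% or more. Retained-intron entries make up most of Uchl1 and little of the other 4 genes.

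**Figure D3:**
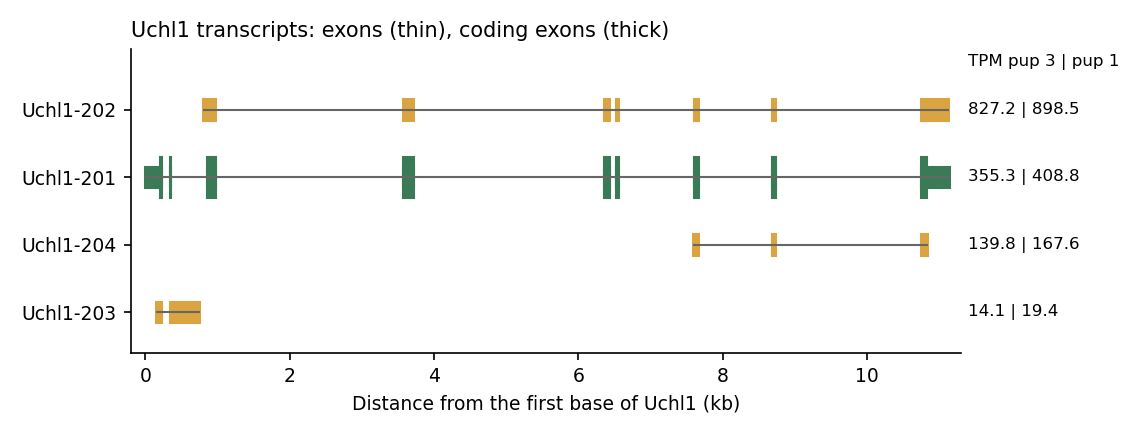
The 4 Uchl1 transcripts along the gene, with distance in kb from its first base, exons as thin boxes and coding exons as thick boxes. The TPM of each in pup 3 and pup 1 stands at the right, and only Uchl1-201, at 355 and 409 TPM, has coding exons.

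The start of Uchl1 is also covered by an antisense gene. Uchl1os, on the minus strand, overlaps Uchl1 by 408 bases, including 244 exonic bases of Uchl1-201. It held 8 expected counts in pup 3 and 5 in pup 1, at 0.55 TPM and 0.33 TPM, under the detection limit in both. Nothing in the labels says whether strand was kept, so reads of the shared bases cannot be told apart by strand. The next gene on the left, Apbb2, which encodes an adaptor that binds the amyloid precursor protein, stood at 44.7 TPM in pup 3, against 63.8 TPM in pup 1. On the right, Gm43279, an unclassified entry, stood at 0.39 TPM and 0.97 TPM.

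Park7 (ENSMUSG00000028964, chromosome 4, 150897133 to 150914437, minus strand) stood at 383 TPM in pup 3, against 363 TPM in pup 1, from 9073 and 7603 counts. In TPM it was the only one of the 5 genes that was higher in pup 3, while in counts scaled to the library total alone Uchl1 was too, at a ratio of 1.01. The gene lists 10 transcripts, 8 of them protein coding, and Park7-201 took 95.1% of the TPM in pup 3 and 92.7% in pup 1. The other 9 each stayed under 5% and together made 4.89% in pup 3 and 7.28% in pup 1. The highest of them, Park7-204, starts at the far end of the gene and stood at 12.4 TPM in pup 3, against 17.1 TPM in pup 1. Tnfrsf9, a receptor gene of activated T cells whose annotated span begins 124 bases beyond Park7 on the opposite strand, stood at 0.09 TPM in pup 3, against 0.30 TPM in pup 1. The gene on the other side, Errfi1, a feedback inhibitor of the epidermal growth factor receptor, stood at 13.1 TPM and 14.2 TPM.

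Prnp (ENSMUSG00000079037, chromosome 2, 131909928 to 131938429, plus strand) stood at 281 TPM in pup 3, against 350 TPM in pup 1, from 17213 and 18953 counts. Its coding transcript Prnp-201 took 99.9% of the TPM in pup 3 and 99.6% in pup 1, so one RNA form accounted for nearly all of the gene. The whole coding sequence of 762 bases lies in the last of its 3 exons. A stretch of that exon is shown because it encodes the octapeptide repeats, the copper-binding element for which the protein is known.
Prnp-201, coding bases 145 to 276, chr2:131936574-131936705, plus strand: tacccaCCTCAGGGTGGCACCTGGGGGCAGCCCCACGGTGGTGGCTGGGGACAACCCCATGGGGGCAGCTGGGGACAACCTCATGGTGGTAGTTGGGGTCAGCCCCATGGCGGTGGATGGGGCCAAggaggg
Capitals mark 5 consecutive matches to a pattern of the octapeptide repeat with its variable bases left free, searched in the reading frame of the coding strand. Of 21951 protein-coding genes, 1 held a match anywhere in its coding sequence, and that was Prnp itself. The pattern was written for this repeat, so its rarity is no independent result.

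The Prnp locus continues into its paralog. Prnd, which encodes doppel, a prion-like protein of the testis, begins 12431 bases beyond Prnp on the same strand and stood at 4.79 TPM in pup 3, against 5.14 TPM in pup 1. Prn, whose annotated span runs across Prnp into Prnd, shares 145 exonic bases with Prnp-201. It held 24.8 expected counts in pup 3 and 0 in pup 1, at 0.26 TPM and 0 TPM. Prnp itself held 17213 and 18953. On the other side, the pseudogene Lamr1-ps1 stood at 0 TPM in pup 3, against 0.05 TPM in pup 1.

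Sncb (ENSMUSG00000034891, chromosome 13, 54758860 to 54766595, minus strand) stood at 96.8 TPM in pup 3, against 114 TPM in pup 1, from 3489 and 3602 counts. Sncg (ENSMUSG00000023064, chromosome 14, 34370274 to 34374789, minus strand) stood at 1.99 TPM in pup 3, against 3.26 TPM in pup 1, from 44 and 64 counts. Beta-synuclein RNA was thus 48.7 times as high as gamma-synuclein RNA in pup 3 and 34.8 times in pup 1. Among detected protein-coding genes, 87.8% lay below Sncb and 9.84% below Sncg.

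The sequences at the start of the coding region are shown because the genes are paralogs whose levels lay far apart. Capitals mark matches to a pattern of the core of the synuclein repeat with its variable bases left free, searched in the reading frame of the coding strand.
Sncb-201, first 150 coding bases, spliced, within chr13:54762932-54765683, minus strand: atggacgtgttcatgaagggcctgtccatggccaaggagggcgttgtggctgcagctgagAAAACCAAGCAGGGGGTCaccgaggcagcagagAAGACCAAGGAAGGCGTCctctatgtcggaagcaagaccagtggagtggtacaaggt
Sncg-201, first 150 coding bases, spliced, within chr14:34373684-34374580, minus strand: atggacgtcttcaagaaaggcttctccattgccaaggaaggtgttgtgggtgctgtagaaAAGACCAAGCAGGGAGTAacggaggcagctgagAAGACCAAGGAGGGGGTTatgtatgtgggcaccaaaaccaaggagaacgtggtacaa
Each stretch holds 2 matches at the same positions, and 3 of 21855 protein-coding genes hold 2 or more in their first 150 coding bases. The pattern was written for the synuclein repeat, so this rarity is no independent result. Copies of the repeat that differ from the pattern stay in lower case, so 2 is not a count of all repeats. Aligned, the stretches were identical at 118 of 147 bases, or 80.3%, and the whole coding sequences, of 399 bases for Sncb and 369 for Sncg, at 69.8% of 364 aligned bases. The printed stretch was thus more alike than the whole.

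Sncb was carried by 1 main transcript and Sncg by 1 listed transcript. Sncb-201 took 96.0% of the Sncb TPM in pup 3 and 94.6% in pup 1. The other 3 entries each stayed under 5%, and the highest, Sncb-202, also with 399 coding bases, stood at 2.33 TPM in pup 3, against 3.46 TPM in pup 1. Near Sncb, Gprin1, a gene of neurite outgrowth, stood at 29.5 TPM in pup 3, against 32.2 TPM in pup 1, and Gm16249 had 0 counts in both pups. Near Sncg, Fam25c stood at 0.11 TPM in pup 3, against 0 TPM in pup 1. Mmrn2, an endothelial matrix gene 675 bases away on the opposite strand, stood at 1.94 TPM and 2.27 TPM.

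Markers of the cells best known for gamma-synuclein, and of dopamine neurons, were set beside Sncg. Of 7 markers of peripheral sensory neurons 4 were detected, with a summed level of 7.26 TPM in pup 3, against 13.2 TPM in pup 1. Tlx3 had 0 counts in both pups, and Scn10a, a sodium channel of pain-sensing neurons, stood at 0.12 TPM and 0.13 TPM. Of the 5 dopamine neuron markers 3 were detected, with a summed level of 18.1 TPM in pup 3, against 27.5 TPM in pup 1, and the midbrain factor Pitx3 stood at 0 TPM and 0.34 TPM. The counts of both neuronal lists lay near the share over all protein-coding genes, 59.5%, so they do not set these markers apart. Of 3 retinal markers 1 was detected, with a summed level of 7.83 TPM in pup 3, against 8.01 TPM in pup 1. Nearly all of that was Rbpms, at 7.57 TPM and 7.87 TPM, while Crx stood at 0.20 TPM and 0.04 TPM. The sums of both neuronal lists were lower in pup 3, as Sncg and most genes were. Much of this lay in Pou4f1, a sensory neuron factor, at 1.36 TPM and 5.19 TPM, and in Slc18a2, the vesicular monoamine transporter, at 6.11 TPM and 12.4 TPM. Prph, a peripheral filament gene, was at 1.91 TPM in each pup, and Th, which makes the dopamine precursor, was higher in pup 3, at 7.09 TPM and 6.51 TPM. The part of these cells in the level of Sncg was not tested.

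The promoters of the highest and the lowest gene are printed for comparison, using RefSeq windows (build GRCm38.p6) from 250 bases before to 50 after the start, cut to the bases before every annotated start. Capitals would mark GGGCGG, the GC box, on either strand, or TATAAA on the gene's strand.
Uchl1 promoter, chr5:66675871-66676090, plus strand: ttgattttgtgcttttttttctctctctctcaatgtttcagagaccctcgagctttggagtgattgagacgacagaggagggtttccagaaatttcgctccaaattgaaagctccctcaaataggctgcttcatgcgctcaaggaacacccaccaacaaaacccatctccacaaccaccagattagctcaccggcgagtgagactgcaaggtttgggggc
Sncg promoter, chr14:34374790-34374919, minus strand: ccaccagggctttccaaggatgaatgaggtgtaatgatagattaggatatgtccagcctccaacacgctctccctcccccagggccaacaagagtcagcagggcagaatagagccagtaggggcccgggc
Neither printed stretch holds either motif. In the full windows of 300 bases, GGGCGG occurred 0 times for Uchl1, 1 time for Park7, 3 times for Prnp, 2 times for Sncb and 1 time for Sncg, and TATAAA in none, against 35.7% and 8.32% of 32851 promoter windows that held them. The number of CG pairs was 9 for Uchl1, 22 for Park7, 22 for Prnp, 15 for Sncb and 9 for Sncg, with a median of 7 over all windows. The highest and the lowest gene thus had the same number in the full windows, which reach past the start. CG pairs were not counted in the printed stretches, which are 220 bases long for Uchl1 and 130 for Sncg.

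Genes related to each of the 5 were listed by role, with the members and lists chosen when earlier results of these data were known. The prion list was detected in 10 of 10 genes, against 59.5% of all protein-coding genes. Its median was 32.8 TPM, against 17.1 TPM over the protein-coding genes detected in both pups. Rpsa, the laminin receptor that binds prion protein, led at 863 ± 111 TPM, though it has many pseudogene copies that share its reads. The neural adhesion gene Ncam1 stood at 380 ± 74.7 TPM and the cochaperone gene Stip1 at 123 ± 8.96 TPM. The endocytic receptors stood lower, with Lrp1 at 45.9 ± 17.4 TPM and Sort1 at 9.81 ± 1.20 TPM. Among the surface proteases, Adam10 stood at 34.6 ± 6.07 TPM, Bace1 at 26.1 ± 8.78 TPM and Adam17 at 8.02 ± 2.08 TPM. Of the prion paralogs, Sprn, which encodes the brain protein Shadoo, stood at 30.9 ± 7.06 TPM and Prnd at 4.97 ± 0.247 TPM, both below Prnp.

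The list of ubiquitin hydrolases and ubiquitin genes was detected in 8 of 8 genes, at a median of 419 TPM. Within the enzyme family Uchl1 was the highest. Uchl3, its widely expressed paralog, stood at 245 ± 27.5 TPM, Bap1, a nuclear hydrolase and tumour suppressor, at 89.1 ± 8.61 TPM, and Uchl5, which trims ubiquitin chains at the proteasome, at 52.1 ± 4.34 TPM. Uchl4, a mouse copy of Uchl3, stood at 1.67 ± 0.219 TPM, and its reads cannot be placed with certainty. Of the ubiquitin genes themselves, the polyubiquitin gene Ubb stood at 3959 ± 149 TPM and Rps27a, which encodes ubiquitin fused to a ribosomal protein, at 594 ± 140 TPM. Processed copies of these genes share their reads.

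Genes of familial parkinsonism were detected in 13 of 14 cases, at a median of 28.0 TPM. The highest was Chchd2, of the mitochondrial intermembrane space, at 860 ± 178 TPM, above Park7. Vps35, of the endosomal retromer, stood at 130 ± 13.7 TPM, the mitochondrial kinase gene Pink1 at 123 ± 2.93 TPM, the lysosomal pump gene Atp13a2 at 106 ± 15.1 TPM and the mitochondrial protease gene Htra2 at 63.3 ± 5.10 TPM. Fbxo7, of a ubiquitin ligase complex, stood at 17.7 ± 2.07 TPM and the phospholipase gene Pla2g6 at 10.6 ± 2.88 TPM. Dnajc6 and Synj1, which uncoat endocytic vesicles, stood at 30.5 ± 10.6 TPM and 25.6 ± 8.24 TPM, and Sncaip, which encodes synphilin, at 25.2 ± 5.68 TPM. The lowest were Vps13c at 2.98 ± 1.12 TPM and the kinase gene Lrrk2 at 1.13 ± 0.382 TPM. Lrrk2 missed the detection limit, at 0.86 TPM in pup 3, against 1.40 TPM in pup 1.

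Redox enzymes and regulators that act beside DJ-1 were detected in 12 of 12 genes found, at a median of 131 TPM. Sod1, the cytosolic superoxide dismutase, led at 1030 ± 93.3 TPM, followed by the peroxiredoxins Prdx2 at 844 ± 55.4 TPM, Prdx1 at 508 ± 25.0 TPM and Prdx5 at 361 ± 15.1 TPM. The lowest was Nfe2l2, which encodes the stress-response factor NRF2, at 10.8 ± 0.530 TPM. Presynaptic partners of synucleins were detected in 11 of 11 genes, at a median of 176 TPM. Rab3a, a vesicle GTPase, stood at 529 ± 38.0 TPM, Vamp2, the vesicle SNARE, at 428 ± 42.6 TPM, and the vesicle chaperone gene Dnajc5 at 194 ± 41.2 TPM. Cplx2 was the lowest of that list at 36.5 ± 6.62 TPM. Sncb at 105 TPM lay within the range of this list, and Sncg lay below all of it.

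**Figure D4:**
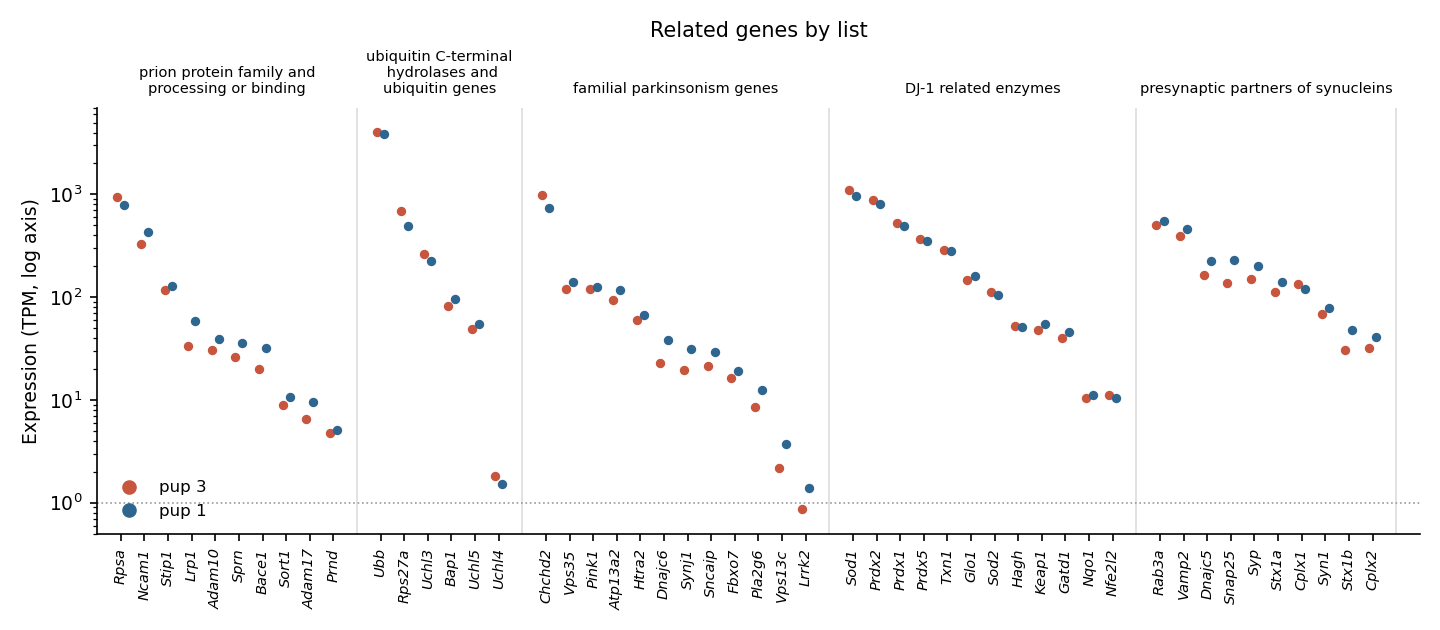
Expression in TPM on a log axis for related genes of 5 lists, in pup 3 (red) and pup 1 (blue), ordered by mean level within a list; the dotted line is the detection limit of 1 TPM. Ubb, at 4064 TPM in pup 3, against 3853 TPM in pup 1, is the highest gene shown, and Lrrk2 in pup 3 is the only point under the limit.

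None of the 5 genes lay over 2-fold apart between the pups, against 2.83% of the 15463 genes whose mean level reached 1 TPM, so this count does not set them apart. The log2 ratio of TPM + 1 in pup 3 over pup 1 was -0.16 for Uchl1, 0.08 for Park7, -0.31 for Prnp, -0.23 for Sncb and -0.51 for Sncg. Most genes were lower in pup 3 in this unit, with a median of -0.24, so each gene is also given relative to that median. These values were 0.08 for Uchl1, 0.31 for Park7, -0.08 for Prnp, 0.01 for Sncb and -0.27 for Sncg. The quartiles over all genes were -0.45 and -0.05 before the median was taken off, so Park7 lay above the upper and Sncg below the lower one. In bulk tissue, fewer cells of a type and less RNA per cell cannot be told apart.

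Park7 lay farthest above the median and Sncg farthest below it. Relative to the median of all genes, Park7 stayed between 0.31 and 0.36 in every unit and scaling tried, and 85.9% of genes had a lower ratio than it in TPM. In CPM, counts scaled to the library total alone, its ratio between the pups was 1.19, with an exact 95% counting interval of 1.15 to 1.22. For Sncg that ratio was 0.683 with an interval of 0.454 to 1.02, so its difference was not detectable at this depth. Sncb, at 0.962 (0.918 to 1.01), and Uchl1, at 1.01 (0.992 to 1.02), also had intervals that include equality, while Prnp, at 0.902 (0.884 to 0.921), did not. This split holds for library-total scaling only. TMM scaling brought the median log2 ratio of all genes to 0.01. Prnp then stood at -0.02, within the half-width of its counting interval, 0.03. Uchl1 at 0.14 and Sncb at 0.08 then lay beyond theirs, 0.02 and 0.07. These intervals cover counting error only and say nothing of variation between animals.

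Among the protein-coding genes whose mean level reached 1 TPM, the ratio differed with transcript length. The median log2 ratio was 0.09 for 1218 genes under 1000 bases, -0.13 for 3826 genes of 1000 to 2000 bases, -0.29 for 5999 genes of 2000 to 4000 bases and -0.43 for 2431 longer ones. Park7, under 1000 bases, lay near the median of its class at 0.08, and so did Prnp, in the class of 2000 to 4000 bases, at -0.31. Sncb, in the class of 1000 to 2000 bases, lay below its median at -0.23, and Uchl1 and Sncg, both under 1000 bases, lay below theirs at -0.16 and -0.51. The class of Uchl1 depends on which transcripts its signal was assigned to. Its only coding transcript, of 1177 bases, would fall in the class of 1000 to 2000 bases, with a median of -0.13. The part of length in these differences was not tested.

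**Figure D5:**
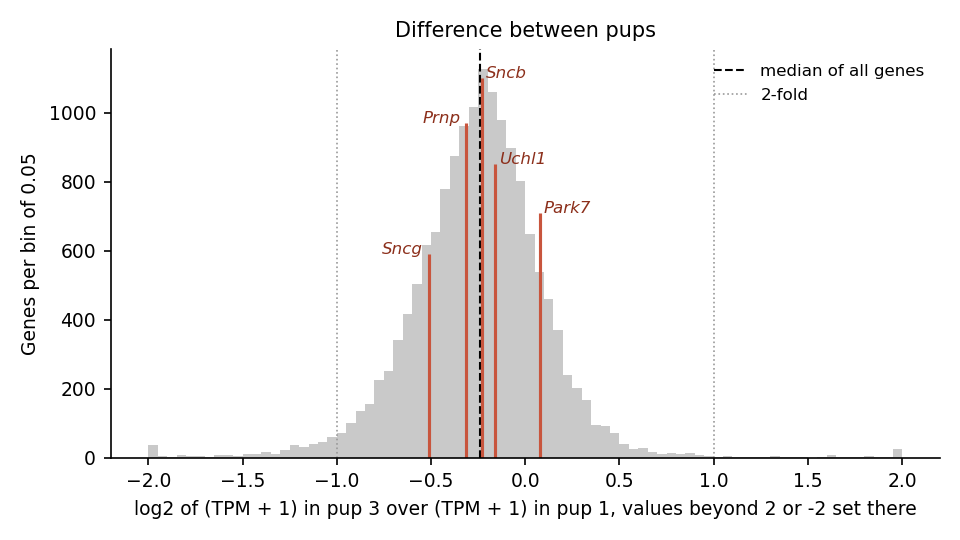
Histogram of the log2 ratio of TPM + 1 in pup 3 over pup 1 for 15463 genes, with the 5 genes as red lines, the median of -0.24 dashed and 2-fold dotted. Line heights carry no value. All 5 genes lie inside 2-fold, with Park7 to the right of the median and Sncg to the left.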

How the data were processed

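Per the labels and the deposited notes, genes and transcripts were quantified on mm10 with annotation M21, used here, and M4, an alternative. No source used here gives the aligner or quantifier; the columns are named as RSEM names them. The authors deposited expected counts (estimated counts in which multi-mapping reads are split), TPM scaled over all listed features with spike-ins, FPKM, and the percent of a gene's TPM in each transcript. Bounds on TPM of unstated level were also deposited and read as a score; they belong to posterior means, which lay below the point TPM in all 5 genes.

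Libraries were oligo-dT primed from little RNA and tagmented, which can weight reads along a transcript unevenly. Symbols, types and coordinates came from GENCODE M21. Computed here were means and SDs over 2 pups, ranks, and log2 ratios between pups (pseudocount 1) and between genes within a library (pseudocount 0.1). Pandas 2.3.3 and SciPy 1.17.1 were used; counts were rounded for TMM scaling in edgeR 4.0.16 and size factors in DESeq2 1.42.0, which gave alternatives only. The intervals cover counting error alone and treat reads as independent. Reads carry no molecular identifiers here, so copies of one molecule cannot be told apart and the intervals may be too narrow. The genes and lists were chosen with earlier results of these data known. Named were all 5 genes, transcripts at 5% or more, neighbours in the genome and in level, every gene of the first 3 lists and the 4 highest and the lowest of the others, except some list genes that are not reported here but stay in list counts and medians; Gatd3a was not found. Alternatives changed the unit, scaling, pseudocount, detection limit, annotation release and the pup left out.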

Additional observations from a re-analysis of the deposited data

How the results depend on the processing

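The order of the genes held in both pups, but its first step rests on which Uchl1 transcripts are summed. With protein-coding transcripts alone, chosen after seeing the data, Uchl1 fell to 382 TPM and its log2 ratio to 0.038 over Park7 and 7.17 over Sncg; pup 3 then had Uchl1 at 355 TPM and Park7 at 382 TPM, and pup 1 had 409 and 361 TPM. Without its shortest entry Uchl1 stood at 1262 TPM. In expected counts, where length is uncorrected, the log2 ratio of Park7 to Prnp reversed to -1.12, that of Prnp to Sncb was 2.35 and that of Sncb to Sncg 6.06. M4 gave Park7 390 TPM and Uchl1-202 69.3% of its gene, and Uchl1-202 held 63.5% of the counts. The number of genes over 2-fold apart stayed at 0 under all 8 alternatives tried. Of 40 single differences 20 moved by more than counting error, as units and scaling shift the median of all genes from -0.24 in TPM to 0.01 with TMM scaling: Uchl1 and Sncb were lower in pup 3 in TPM and higher with TMM scaling (0.14 and 0.08). Of the parkinsonism list, 14 genes were detected at 0.5 TPM, 11 at 5 TPM and 12 with M4; at 5 TPM the prion list had 9 and the ubiquitin list 7. Of 25 ranks 11 moved by more than the spread between pups. With 2 pups, leaving 1 out cannot move a mean past that spread. Depth limits Sncg, at 44 and 64 counts. No paired analysis was possible because there is only 1 group.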

Other observations

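The protein-coding genes nearest in level show what each value stands beside. Next to Uchl1 stood Nrep at 1431 TPM and mt-Nd2 at 1426 TPM above it, and Ptgds, a prostaglandin synthase of the meninges, at 1413 TPM and Dbi, an acyl-CoA binding protein, at 1403 TPM below it. Park7 lay between Rpl36al and Rab11a at 374 and 373 TPM and Ergic3 and Psmb5, a catalytic proteasome subunit, both at 372 TPM. Prnp lay between the granin-like Pcsk1n and Sumo3, both at 316 TPM, and the autophagy gene Map1lc3b at 315 TPM and Polr2f at 314 TPM. Sncb stood level with Ube3a, the imprinted ubiquitin ligase of Angelman syndrome, Rbm17, Pcna and Ift22, all at 105 TPM. Sncg stood beside Lag3, 1700028P14Rik, Scgn and Lpar4, all at 2.63 TPM.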
